A study of Mus musculus with 24 samples.

Results

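The genes described here are 9 members of the core circadian clock: the period genes Per1, Per2 and Per3, the cryptochrome genes Cry1 and Cry2, the transcription factor genes Clock and Npas2, and the casein kinase genes Csnk1d and Csnk1e. They were read on every probe set whose only gene symbol in the array's probe-to-gene table was one of these, which gave 26 of 45037 probe sets and all 9 of 9 genes. Per3 had 6 probe sets, Csnk1d 5, Clock 4, Per2 and Csnk1e 3 each, Npas2 2, and Per1, Cry1 and Cry2 1 each. Every one of the 26 entered the tests, since no filter on low values was applied. The level of a probe set depends on its own sequence, so differences between genes in level are not read as differences in expression.

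RNA of 24 brain samples from male mice, 12 weeks old, was hybridised to 1 array each, all taken 6 h after light onset. The mice had been kept awake by gentle handling over those 6 h or had been left undisturbed. For the pull-down, per the labels' protocols, mice were perfused with formaldehyde and polyadenylated RNA of cells that express Homer1a, the immediate-early isoform of the Homer1 synaptic scaffold, was captured by mRNA tagging with anti-FLAG beads, which gave the pull-down arrays (6 after sleep deprivation, 6 controls). The supernatant arrays (4) hold total RNA left in solution by the beads, and the whole-brain arrays (4 after sleep deprivation, 4 controls) hold total RNA that was extracted directly. The sources used here give neither strain and genotype nor the tagging transgene. The method relies on a FLAG epitope on poly(A)-binding protein, made in the chosen cells, to retrieve their transcripts, and both conditions of the pull-down went through the same procedure. Only the immunoprecipitated RNA is described as amplified. For supernatant 13 the title gives sleep deprivation and the source field control, so supernatants were 1 group with no comparison of sleep deprivation. Whether both conditions are balanced among the supernatants depends on that array, so condition may enter any comparison with supernatant. The labels do not say which pull-down a supernatant came from, and p-values measure the spread between these samples only, which may be technical in part.

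The clock is a feedback loop of transcription. CLOCK, or its paralogue NPAS2 that is prominent in the forebrain, pairs with BMAL1 (the product of Arntl) and binds E-box elements to switch on the Per and Cry genes, whose proteins return to the nucleus and inhibit that pair. The casein kinases 1 delta and epsilon phosphorylate PER proteins and so set how fast they are degraded. The loop runs in most cells and is led by the suprachiasmatic nucleus, and Per1 and Per2 are also direct targets of cAMP and glucocorticoid signalling. In bulk RNA such as this, fewer cells of a type and less RNA per cell cannot be told apart.

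Array-wide measures set the pull-down apart from the other extracts. The median log2 value of an array, an RMA intensity as in all values below, ranged from 6.04 to 6.24 for whole brain, 6.09 to 6.21 for supernatant and 4.37 to 5.70 for pull-down. Signal of 18S ribosomal RNA lay at 13.79 to 13.94, 14.23 to 14.42 and 6.83 to 11.14 in the same order. Among pull-downs, control 3 and sleep-deprived 1 carried the most 18S (11.14 and 11.04), and pull-down control 11 correlated least with the other pull-down arrays (r = 0.913 across probe sets). The Homer1 probe set with the highest mean (1437363_at) read 1.16 ± 0.17 (SE) above whole brain in pull-down. Of the markers fixed for non-neuronal cells, 6 of 6 endothelial and pericyte and 6 of 6 microglial genes lay below whole brain in pull-down. So did 5 of 6 astrocyte and 4 of 5 oligodendrocyte genes (limma, adjusted p under 0.05). Of 8 neuron markers 1 was higher and 4 lower. Of all 45037 probe sets 76.3% were lower and 8.06% higher. After quantile normalization the marker counts were 6, 5, 5, 5, 1 and 4 in the same order, where 11809 of all probe sets were lower and 14526 higher. After centring they were 5, 3, 3, 3, 4 and 3, where 8245 of all were lower and 23403 higher. The astrocyte marker Gfap was instead higher in pull-down, by 1.69 ± 0.21 (SE) as deposited, 1.94 after quantile normalization and 2.84 after centring. The oligodendrocyte marker Mbp was higher after centring alone (0.91). Of 5 markers of the suprachiasmatic nucleus 4 were lower and 1 higher as deposited. The counts were 0 lower and 2 higher after quantile normalization, and 0 lower and 3 higher after centring.

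Among the period genes, Per2 gave the clearest difference after sleep deprivation, in whole brain. At 1417602_at the 4 controls read 6.64, 6.92, 7.03 and 7.08 and the 4 sleep-deprived brains 7.43, 7.59, 7.70 and 7.76. Every sleep-deprived brain lay above every control. The difference was 0.71 ± 0.13 log2 units (SE), or 1.63-fold, with a 95% interval of 0.43 to 0.98 and an adjusted p of 0.0908 over all probe sets in limma, which misses the threshold of 0.05. It was rank 37 of 45037 by p and also by the size of a positive difference. The same probe set passed after quantile normalization (0.81 ± 0.12, adjusted p = 0.0211), after centring each array on its median (0.79 ± 0.13, 0.0235) and with a variance trend and robust estimation (0.0163). It did not pass with array weights or in 1 fit of all 24 arrays, and over these and the other alternatives, leaving out arrays included, its adjusted p ran from 0.0163 to 1.

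The second Per2 probe set, 1417603_at, read the same way. Its controls were tightly placed at 6.58, 6.59, 6.61 and 6.62, and the sleep-deprived brains read 6.87, 7.21, 7.22 and 7.28, again without overlap. The difference was 0.54 ± 0.11 (adjusted p = 0.168), and sleep-deprived brain 21 was the low value of its group. The remaining Per2 probe set, 1457350_at, had overlapping groups and a difference of 0.11 ± 0.14 (adjusted p = 0.797). Over the 26 member probe sets these were the 2 without overlap above control, and 0 lay wholly below, where 1.75% of all probe sets lay wholly above and 4.25% wholly below. By an exact two-sided permutation test of the arrays, 1417602_at and 1417603_at each had p = 0.0286, the smallest that 4 against 4 allows. Groups without overlap always reach this value, so it adds nothing to the lack of overlap.

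**Figure D1:**
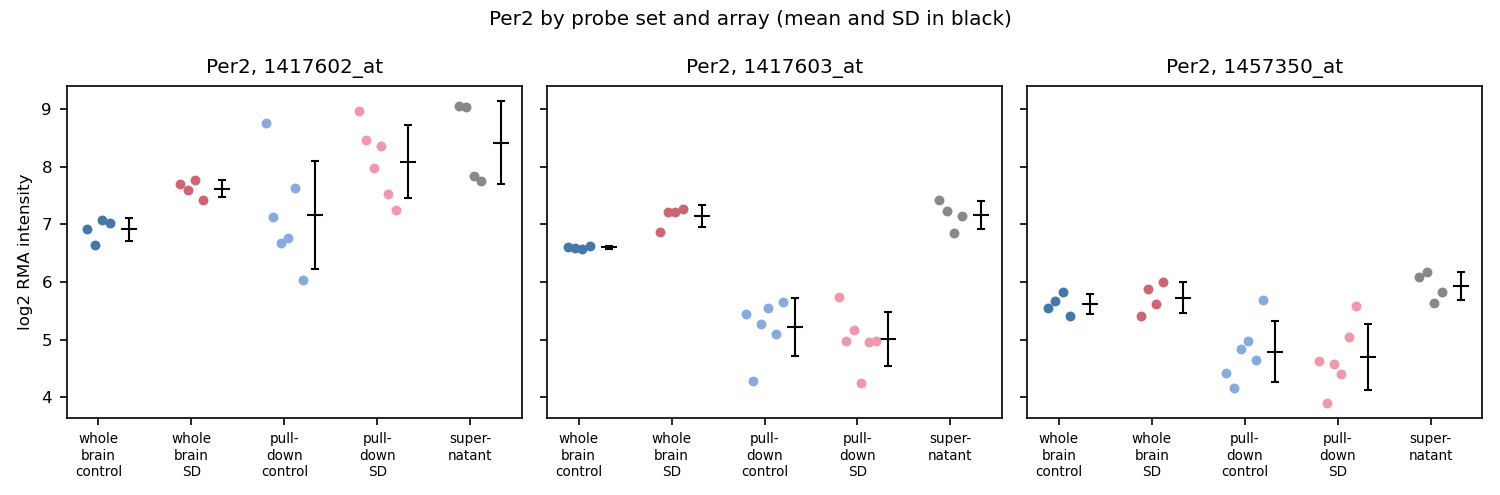
Log2 RMA intensity (vertical axis) of the 3 Per2 probe sets on every array, by group (SD, sleep deprivation), with the mean and SD of each group in black. At 1417602_at the sleep-deprived whole brains read 7.43 to 7.76 against 6.64 to 7.08 in controls, and the pull-down groups spread more widely and overlap.

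In pull-down the Per2 probe sets disagreed. 1417602_at ranged from 6.04 to 8.77 with a median of 6.95 in the 6 controls and from 7.25 to 8.96 with a median of 8.17 in the 6 sleep-deprived pull-downs. The groups overlapped, although all 6 arrays after sleep deprivation exceeded the control mean of 7.17. The difference of 0.92 ± 0.40 had an unadjusted p of 0.0313 and an adjusted p of 1 in limma. It was 0.70 ± 0.38 without pull-down control 11, the lowest control, and 1.07 ± 0.33 when both arrays richest in 18S were left out. 1417603_at read −0.21 ± 0.29 and 1457350_at −0.10 ± 0.31, on the other side of 0. Whether the effect differed between extracts was tested as the difference of both effects: it was −0.75 ± 0.36 for 1417603_at (unadjusted p = 0.0507, adjusted p = 1) and 0.22 ± 0.53 for 1417602_at, and neither passed.

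Per2 also spread widely within the supernatants. At 1417602_at the arrays labelled sleep-deprived in both fields, 15 and 14, read 9.06 and 9.03, supernatant control 16 read 7.83, and supernatant 13, whose labels disagree, read 7.75. Per1 read 7.31, 6.59, 6.04 and 6.37 on arrays 15, 14, 16 and 13. These are single values, and no sample was assigned to a condition from them.

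Per1 responds acutely to light and to hormones in many tissues. At 1449851_at, its 1 probe set, the control brains read 6.88, 7.17, 7.40 and 7.66 and the sleep-deprived brains 7.60, 7.67, 7.74 and 7.79. All 4 sleep-deprived values lay above the control mean, but the highest control lay among them. The difference was 0.42 ± 0.15 (95% interval 0.10 to 0.74, unadjusted p = 0.014, adjusted p = 0.366, exact permutation p = 0.0571). In pull-down it read 0.21 ± 0.37, with 3 of 6 arrays after sleep deprivation above the mean of the controls. That value rests on pull-down after sleep deprivation 1, at 6.88 where the other 5 read 4.41 to 5.22, and it was −0.08 ± 0.28 without this array and control 3. The window around one annotated Per1 start site, 250 bases before it to 50 after, is shown because it holds an E-box, the kind of element that CLOCK, NPAS2 and BMAL1 bind. Sequences here are from RefSeq, and capitals mark the E-box or D-box.

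Per1 (GRCm38.p6, chr11:69098699-69098998, + strand): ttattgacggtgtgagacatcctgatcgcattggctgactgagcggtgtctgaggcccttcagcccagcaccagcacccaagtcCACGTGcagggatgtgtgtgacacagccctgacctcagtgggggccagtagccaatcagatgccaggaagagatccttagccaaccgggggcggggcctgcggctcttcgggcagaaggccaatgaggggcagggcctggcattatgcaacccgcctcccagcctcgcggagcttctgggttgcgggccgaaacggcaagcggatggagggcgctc

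The E-box CACGTG, a palindrome, starts at base −166 from the start site. Of 32851 such windows of all genes outside chromosome 18, 7.15% hold this motif on either strand, and 2 of the 13 member windows did. By gene it was 2 of the 7 members with a window, Per1 and Cry1, and 8.09% of all genes. The full cAMP response element TGACGTCA was in 0 of the 13 member windows and 1.79% of all. Its shorter form TGACG, on either strand, was in 6 of 13 member windows, of Per1, Cry1, Cry2 and Csnk1e. It was in 20.8% of all windows, counting any within the full element. Both Csnk1e windows that hold it overlap and share the same site. By gene it was 4 of the 7 members with a window, and 23.0% of all genes. This shorter form is left in lower case in the printed windows. Per2 and Csnk1d are not in the table. A match is a string of letters and not a measured binding site.

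Per3, the member of the family that the loop can lose with the least effect on rhythm, gave values on the other side of 0. All 6 probe sets read below control in whole brain as deposited (5 of 6 after quantile normalization or centring), from −0.32 to −0.03 with a median of −0.19, against −0.07 for the median probe set of the array. At 1441445_at the controls read 5.19, 5.46, 5.51 and 5.65 and the sleep-deprived brains 5.00, 5.02, 5.18 and 5.32. The groups overlapped, and the difference of −0.32 ± 0.13 had an unadjusted p of 0.023 and an adjusted p of 0.397. At 1458176_at the controls read 5.87, 6.03, 6.11 and 6.18 and the sleep-deprived brains 5.65, 5.67, 5.86 and 5.90, a difference of −0.28 ± 0.11 (unadjusted p = 0.0293, adjusted p = 0.415). None of the 6 passed. After quantile normalization 1421086_at read 0.04, and the values of 1441445_at and 1458176_at were −0.19 and −0.17. The probe sets of 1 gene share the same RNA and arrays and are not separate evidence. In pull-down they ran from −0.55 to 0.29, with 4 below 0 and 2 above. The Per3 window is shown for its pair of D-boxes, the element bound by the clock output factors DBP, TEF and HLF.

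Per3 (GRCm38.p6, chr4:151044616-151044915, - strand): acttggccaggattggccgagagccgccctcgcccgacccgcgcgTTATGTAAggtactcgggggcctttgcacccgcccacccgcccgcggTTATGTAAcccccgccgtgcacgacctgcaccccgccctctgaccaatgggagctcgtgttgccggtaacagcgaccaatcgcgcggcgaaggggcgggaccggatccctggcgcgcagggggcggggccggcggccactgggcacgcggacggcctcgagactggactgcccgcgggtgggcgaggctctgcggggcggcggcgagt

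The D-box was searched as TTANGTAA on both strands. Its matches start at bases −205 and −158 from the Per3 start site, and 2.32% of all windows hold at least 1, as did 1 of the 13 member windows. By gene it was Per3 alone of 7 members, and 2.72% of all genes.

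The cryptochrome genes Cry1 and Cry2 encode the main transcriptional inhibitors of the loop, and neither passed for sleep deprivation. At 1433733_a_at of Cry1 the control brains read 7.12, 7.27, 7.41 and 7.52 and the sleep-deprived brains 7.41, 7.49, 7.58 and 7.75. The groups overlapped with 4 of 4 sleep-deprived brains above the control mean, and the difference was 0.23 ± 0.12 (interval −0.04 to 0.49, adjusted p = 0.513). In pull-down Cry1 ranged from 7.00 to 8.59 with a median of 7.51 in controls and from 7.66 to 8.45 with a median of 8.06 after sleep deprivation, where 6 of 6 arrays lay above the control mean and the difference was 0.45 ± 0.28 (unadjusted p = 0.13, adjusted p = 1). At 1426383_at of Cry2 the control brains read 9.34, 9.53, 9.53 and 9.64 and the sleep-deprived brains 9.49, 9.49, 9.51 and 9.56. The difference was 0.0022 with an interval of −0.22 to 0.23, which bounds the size of any difference between these groups. The Cry1 window holds the other E-box among the members, at base −60 from its start site.

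Cry1 (GRCm38.p6, chr10:85185005-85185304, - strand): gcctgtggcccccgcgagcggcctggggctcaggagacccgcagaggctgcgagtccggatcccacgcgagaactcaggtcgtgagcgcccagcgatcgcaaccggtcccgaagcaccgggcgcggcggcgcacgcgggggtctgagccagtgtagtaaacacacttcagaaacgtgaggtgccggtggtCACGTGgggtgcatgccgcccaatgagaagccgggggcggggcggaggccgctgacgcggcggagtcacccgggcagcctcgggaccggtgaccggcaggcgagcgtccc

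Among the activators, Clock and Npas2 encode interchangeable partners of BMAL1. The 4 Clock probe sets read between −0.27 and 0.11 after sleep deprivation in whole brain. At 1418659_at, the one with the highest mean, the controls read 8.07, 8.15, 8.18 and 8.24 and the sleep-deprived brains 8.02, 8.21, 8.22 and 8.39. These values interleave, with a difference of 0.05 ± 0.11 and an interval of −0.19 to 0.29. The lowest difference, −0.27 ± 0.16, was at 1439314_at, a probe set below the array median on every array of every extract. The Npas2 probe sets read 0.11 ± 0.13 (1421037_at) and −0.14 ± 0.13 (1421036_at). In pull-down 1421037_at ranged from 8.40 to 9.55 with a median of 8.64 in controls and from 8.87 to 9.58 with a median of 9.32 after sleep deprivation, with 6 of 6 arrays above the control mean. That difference was 0.46 ± 0.25 (unadjusted p = 0.0859, exact permutation p = 0.0628, adjusted p = 1), while 1421036_at read 0.03 ± 0.29.

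For the kinases, the 5 Csnk1d probe sets ran from −0.17 to 0.13 after sleep deprivation in whole brain and from −0.26 to 0.13 in pull-down. None had an unadjusted p under 0.05 in either. Of the 3 Csnk1e probe sets, 1417175_at had controls at 6.44, 6.59, 6.79 and 6.86 and sleep-deprived brains at 6.85, 6.91, 7.03 and 7.04. All 4 sleep-deprived values were at or above the second highest control, and the difference was 0.29 ± 0.12 (interval 0.03 to 0.55, unadjusted p = 0.0303, adjusted p = 0.415). The other Csnk1e probe sets read 0.00 ± 0.12 and −0.16 ± 0.16, so the gene's probe sets did not read alike.

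**Figure D2:**
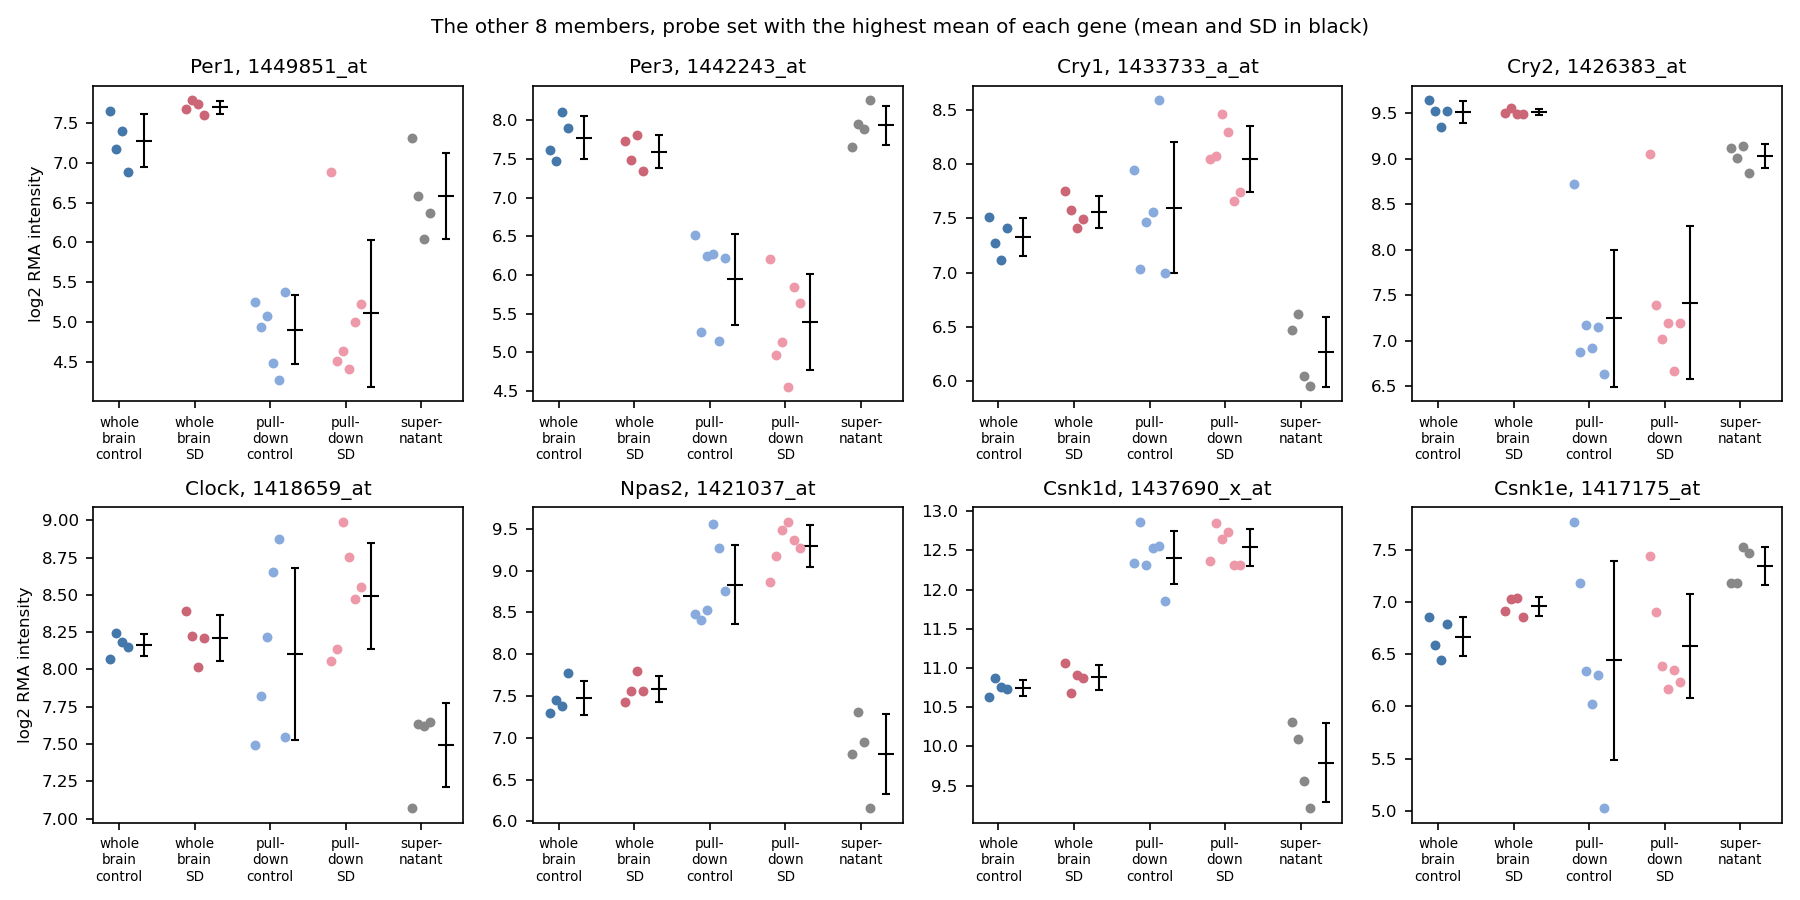
Log2 RMA intensity (vertical axes, each with its own range) of the other 8 members on every array, at the probe set with the highest mean over all arrays, by group (SD, sleep deprivation), with the mean and SD in black. The groups of each extract overlap in every panel, and 1 or 2 pull-down arrays stand high for Per1 and Cry2.

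Counted over the 26 member probe sets, 0 passed for sleep deprivation in whole brain, where 0.0466% of all probe sets passed (21 of 45037), 0.0355% higher and 0.0111% lower, by limma. At an unadjusted p under 0.05 there were 6, with 4 higher (Per1, both Per2 probe sets named above and Csnk1e) and 2 lower (Per3), against 10.9% of all probe sets. With quantile normalization, centring, or variance trend and robust estimation the count that passed was 1. The median member differed by 0.0046 and the median probe set by −0.07. The 95% interval of all 26 lay between −1 and 1 log2 units, and that of 17 within 0.5 of 0, so a change of 1 log2 unit or more lay outside each of them. In pull-down 0 passed, where 0% of all did, and 1 had an unadjusted p under 0.05, against 0.955% of all. All 26 had overlapping groups there, where 0.04% of all probe sets lay wholly above control and 0.0178% wholly below. There the intervals were wider, with a median width of 1.22 against 0.52 in whole brain. The difference between both effects passed for 0 members, where 0% of all passed, and 0 had an unadjusted p under 0.05, against 0.338% of all.

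The groups of whole brain also differed a little in array-wide measures. The array medians ranged from 6.13 to 6.24 in controls and from 6.04 to 6.16 after sleep deprivation, and the 3′ minus 5′ log2 difference of the Gapdh control from 2.49 to 2.78 and from 2.74 to 2.95. The mean of the 5 oligodendrocyte markers ranged from 10.46 to 10.60 and from 10.34 to 10.53, and 0 markers of any list passed in this comparison. The part of these measures in the clock values was not tested beyond the scalings given.

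**Figure D3:**
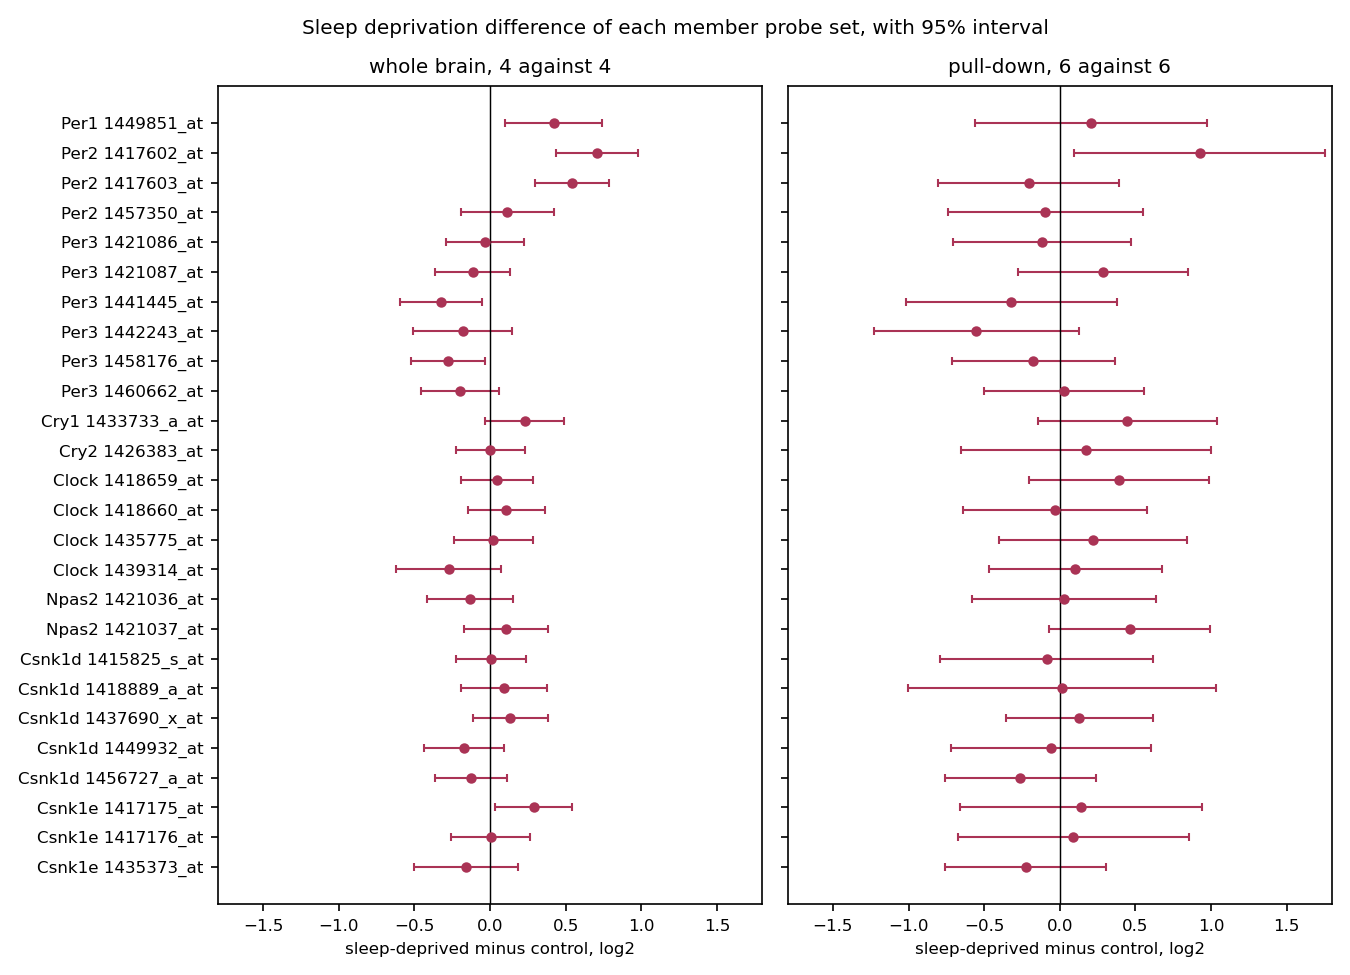
Sleep-deprived minus control log2 difference (horizontal axis) of each of the 26 member probe sets (vertical axis), with 95% intervals, in whole brain (left) and pull-down (right). The Per2 probe sets 1417602_at (0.71) and 1417603_at (0.54) lie farthest from 0 in whole brain, and the pull-down intervals are wider throughout.

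When pull-down was set against its references, most member probe sets passed as lower as deposited. A few passed as higher, of Cry1, Npas2 and Csnk1d against both references and of Clock against supernatant alone. Against whole brain 21 of 26 probe sets passed, 3 higher and 18 lower, where 84.4% of all passed, 8.06% higher and 76.3% lower. Against supernatant 24 passed, 4 higher and 20 lower, where 78.6% of all passed, 11.2% higher and 67.4% lower. The median of all probe sets was −0.78 and −0.85 in these comparisons, and that of the members −1.46 and −1.57, with 18 and 17 of 26 below the median of all. Both comparisons share the pull-down arrays. After quantile normalization the median of all was 0.09 and 0.02, and the members passed as 8 higher and 13 lower against whole brain and 6 and 13 against supernatant. Over all probe sets the calls against whole brain were 9.55% higher as deposited, 55.2% after quantile normalization and 73.9% after centring, and against supernatant 14.2%, 49.6% and 70.2%. Directions below are as deposited, with values under quantile normalization beside those of single probe sets.

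Per1, one of the inhibitors of the loop, read 7.49 ± 0.32 (SD, n = 8) in whole brain, 6.58 ± 0.54 (n = 4) in supernatant and 5.00 ± 0.70 (n = 12) in pull-down. Of the 12 pull-downs 11 lay below all 8 whole brains, and the highest, sleep-deprived 1, level with the lowest whole brain (both 6.88). The difference from whole brain was −2.48 ± 0.24 (SE, adjusted p = 1.0e-09), −1.46 after quantile normalization, and that from supernatant −1.58 ± 0.31, which did not pass after quantile normalization (−0.50, adjusted p = 0.108). Cry2 was similarly placed, in the same order, at 9.51 ± 0.08, 9.02 ± 0.13 and 7.33 ± 0.76, with −2.18 ± 0.24 against whole brain and −1.65 after quantile normalization. The 2 high pull-downs for Cry2, control 3 (8.72) and sleep-deprived 1 (9.05), are those with the most 18S signal. All 6 Per3 probe sets were lower than in whole brain, with differences of −2.02 to −1.14, and than in supernatant (−2.27 to −1.56). After quantile normalization they read −0.97 to −0.33 against whole brain at 5 of them and 0.01 at 1460662_at, and −1.37 to −0.47 against supernatant.

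Per2 and Cry1 gave values that depended on the probe set, the reference or the scaling. Per2 at 1417602_at read 7.27 ± 0.41 in whole brain, 8.42 ± 0.72 in supernatant and 7.63 ± 0.90 in pull-down, with 0.36 ± 0.27 against whole brain (adjusted p = 0.209) and 1.17 after quantile normalization (adjusted p = 0.000263). Against supernatant it read −0.79 ± 0.34 (adjusted p = 0.0364), which did not pass without any 1 of 7 arrays, supernatants 15 and 14 among them (−0.58, 0.166, and −0.59, 0.158). At 1417603_at the difference from whole brain was −1.76 ± 0.17, and −0.64 after quantile normalization. The 1457350_at probe set read −0.93 ± 0.19 and 0.21 after quantile normalization. Cry1 was higher in pull-down than in supernatant by 1.55 ± 0.22, from 6.27 ± 0.32 to 7.82 ± 0.51 (2.42 after quantile normalization), without overlap between the groups. Against whole brain it read 0.38 ± 0.18 (adjusted p = 0.0473). That call was lost on leaving out 13 of the 20 arrays of these groups one at a time and with controls only (0.27, adjusted p = 0.318) or sleep-deprived only (0.49, 0.0797), while after quantile normalization the value was 1.19 (1.0e-07).

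Among the activators the probe sets of 1 gene read opposite ways as deposited. For Npas2 this did not hold against whole brain after quantile normalization, but it did against supernatant. Npas2 at 1421037_at was higher, at 7.53 ± 0.18 in whole brain, 6.81 ± 0.48 in supernatant and 9.06 ± 0.44 in pull-down. All 12 pull-downs, from 8.40 to 9.58, lay above all whole brains and supernatants. The difference from whole brain was 1.53 ± 0.17 (adjusted p = 6.5e-09), or 2.89-fold, and 2.17 after quantile normalization. At 1421036_at the same gene was lower, at −1.07 ± 0.18 (adjusted p = 5.3e-06), which became 0.08 after quantile normalization. Clock read 0.11 ± 0.17 at 1418659_at and 0.35 ± 0.18 at 1435775_at, neither past the threshold as deposited and both higher after quantile normalization (0.74 and 1.10). It was lower at 1418660_at (−1.95 ± 0.18, −1.0 after quantile normalization) and at 1439314_at (−1.51 ± 0.18, −0.84).

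Csnk1d, the kinase gene with most probe sets, had some higher and some lower. The probe set 1437690_x_at, of a kind that can bind transcripts of several genes, read 10.81 ± 0.14 in whole brain, 9.79 ± 0.50 in supernatant and 12.47 ± 0.29 in pull-down. Its difference was 1.66 ± 0.15 against whole brain and 2.68 ± 0.19 against supernatant, and it was 1.38 and 2.35 after quantile normalization. Against whole brain 1449932_at (−2.01 ± 0.19), 1415825_s_at (−1.52 ± 0.20) and 1418889_a_at (−1.41 ± 0.31) were lower as deposited. After quantile normalization 1449932_at still passed (−0.87), while 1415825_s_at (−0.47, adjusted p = 0.0623) and 1418889_a_at (−0.55, 0.101) did not. The fifth, 1456727_a_at, read −0.21 ± 0.14, and 0.75 after quantile normalization. Csnk1e was lower at 1417176_at (−1.92 ± 0.22) and 1435373_at (−1.26 ± 0.17), with −0.86 and −0.35 after quantile normalization, and read −0.30 ± 0.24 at 1417175_at, which turned to 0.67.

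Probe sets of 1 gene were called in opposite directions against whole brain for 2 of the 6 members with several, Npas2 and Csnk1d, where 23.6% of 9010 such genes were. Against supernatant it was 3 of 6, with Clock, where 30.4% were. After quantile normalization it was 4 of 6 against whole brain (Per2, Clock, Csnk1d and Csnk1e, where 29.1% of genes were) and 3 of 6 against supernatant (Clock, Npas2 and Csnk1d, 33.2%), so the count and the genes depend on the scaling. The sources used here do not give where each lies along its transcript. The 3′ minus 5′ Gapdh difference ranged from 3.29 to 5.96 in pull-down and from 2.49 to 2.95 in whole brain, and its part in these differences was not tested. Against both references together, as deposited, 3 member probe sets were higher, of Cry1, Npas2 and Csnk1d, where 7.46% of all were higher in both, and 17 were lower in both, where 65.8% of all were.

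**Figure D4:**
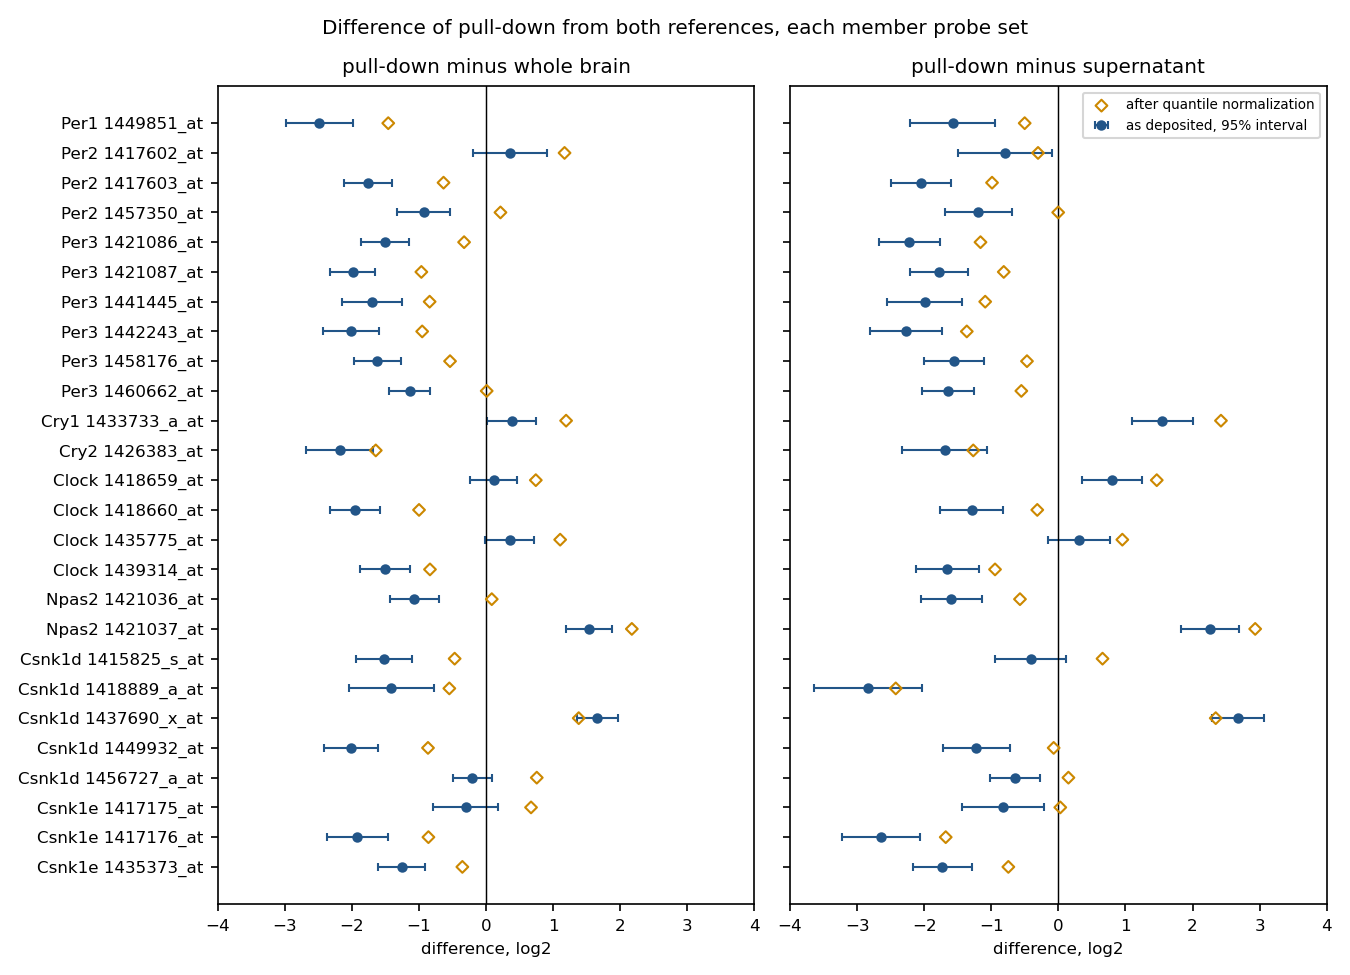
Log2 difference (horizontal axis) of pull-down from whole brain (left) and from supernatant (right) for each member probe set (vertical axis), as deposited with 95% intervals (circles) and after quantile normalization (diamonds). Cry1 1433733_a_at, Clock 1435775_at, Npas2 1421037_at and Csnk1d 1437690_x_at are among the probe sets to the right of 0 on both scales in both panels. With the scaling 5 probe sets cross 0 against whole brain: Per2 1457350_at, Per3 1460662_at, Npas2 1421036_at, Csnk1d 1456727_a_at and Csnk1e 1417175_at.

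Whole brain against supernatant differed at 8 of 26 probe sets, 5 higher and 3 lower, where 10.9% of all passed, 8.89% higher and 2.01% lower. The fit also held the pull-down arrays, so their spread entered the standard errors of this comparison. Cry2 did not pass (0.49 ± 0.33, limma, adjusted p = 0.425), although whole brains read 9.34 to 9.64 and supernatants 8.85 to 9.14. A probe set that did not pass is therefore not shown to be alike in both extracts. Cry1 (1.17 ± 0.24), Npas2 1421037_at (0.72 ± 0.22) and Csnk1d at 1437690_x_at (1.02 ± 0.20), 1415825_s_at (1.11 ± 0.27) and 1449932_at (0.79 ± 0.26) were higher in whole brain. Per2 1417602_at (−1.15 ± 0.36), Per3 1421086_at (−0.72 ± 0.23) and Csnk1d 1418889_a_at (−1.43 ± 0.42) were lower. The Per2 call was lost without supernatant 15 or supernatant 14, both labelled sleep-deprived (limma, adjusted p = 0.175 and 0.16). All 8 also passed in the same direction after quantile normalization, at 0.76 to 1.23 for the higher and −1.88 to −0.83 for the lower. Of these 8, Cry1, 1437690_x_at and 1415825_s_at passed under every alternative, with adjusted p of at most 0.0362. After centring, Per2, Npas2 and 1418889_a_at did not pass (limma, adjusted p = 0.113, 0.0731 and 0.0643). On leaving out 1 of 12 arrays at a time, the call was lost 12 times for 1449932_at and 11 times for Per3. It was lost 8 times for Npas2, 7 times for Per2 and 2 times for 1418889_a_at. The count fell to between 4 and 6 on leaving out any 1 of the 12 arrays, and over all probe sets the calls were 81.5% higher as deposited, 54.3% after quantile normalization and 63.3% after centring.

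A list of further genes of the loop, its outputs and its regulators had 30 with a probe set of their own. Each was read only at its probe set with the highest mean over all arrays, and other probe sets of these genes may read otherwise. For sleep deprivation 0 of 30 passed in limma in whole brain, where 0.0466% of all probe sets passed. Of the 30, 15 lay above and 15 below 0, with a median of −0.003, where 33.3% of all lay above 0. At an unadjusted p under 0.05 there were 2 higher and 2 lower, against 10.9% of all probe sets. In pull-down 0 of 30 passed, where 0% of all did. There 1 was higher at an unadjusted p under 0.05, against 0.955% of all. It was Btrc (0.67 ± 0.29, limma, unadjusted p = 0.0313), named after its value was seen. Arntl, the partner of the activators, read 0.10 ± 0.15 in whole brain and 0.18 ± 0.28 in pull-down. Nr1d1, which represses Arntl, read 0.01 ± 0.15 and −0.05 ± 0.35, the output gene Dbp −0.18 ± 0.17 and −0.60 ± 0.37, and the repressor gene Ciart −0.07 ± 0.13 and −0.28 ± 0.24. Named after their values were seen, those with an unadjusted p under 0.05 in whole brain were Nfil3 (0.41 ± 0.12, adjusted p = 0.302) and Bhlhe40 (0.46 ± 0.15, 0.341), both repressors, and Timeless (−0.34 ± 0.14, 0.411) and Tipin (−0.32 ± 0.12, 0.381), partners at replication forks.

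By Pearson correlation over the 8 whole-brain arrays, as a description with no test, the genes most like Per2 1417602_at among 18192 were Vps33a (r = 0.960), Amotl1 (0.956) and Atg101 (0.95). For Per1 they were Rps16 (0.956), Rpgr (0.938) and Tcp1 (0.934). The closest gene was Tk2 for Per3 (0.957), Ppp5c for Cry1 (0.944), Crmp1 for Cry2 (0.969), Tcp11 for Clock (0.95), Ttc19 for Npas2 (0.969), Zkscan6 for Csnk1d (0.971) and Dusp15 for Csnk1e (0.948). Each gene was read only at its probe set with the highest mean over all arrays. Other probe sets of a member did not always follow that one over these 8 arrays. Per2 1417602_at had r = 0.81 with 1417603_at. The 2 Npas2 probe sets had r = −0.22, and Csnk1e 1417175_at had r = −0.73 with 1435373_at. None of the 27 genes ranked in the top 3 of a member was itself a member. The 8 arrays share their array-wide shifts and the 2 conditions, and with so many genes ranked over so few arrays values this high are reached for every member.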

How the data were processed

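RNA was measured on 24 short-oligonucleotide arrays of 5 groups. The values the authors deposited are log2 intensities, made per the submitters' processing notes with the affy package and RMA, whose version is not given in these sources. Values were used as deposited, with no filter. Of 45101 probe sets 64 controls were left out. The probe-to-gene table, of 2016, gave 1 symbol for 34945 of the 45037 tested, several for 932 and none for 9160.

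limma 3.58.1 (lmFit, eBayes) in R 4.3.3 gave the differences, two-sided, Benjamini-Hochberg adjusted over all probe sets at 0.05: sleep deprivation within each extract on its own arrays, the difference of both effects on 20 arrays, and extracts in 1 fit of all 24 with equal-weight condition means. The script was tested on simulated data. No array pair was identical. Members and lists were chosen with earlier results of these data known. All members are named; other genes follow lists, except where said. Alternatives were quantile normalization, centring, a minimum mean of 5, array weights, variance trend, left-out arrays, 1 joint fit and exact permutation. Arrays have no read depth, and their number limits the precision.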

Additional observations from a re-analysis of the deposited data

Results flagged for a closer look

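Of 130 sets of values, each 1 member probe set in 1 group, 6 had an end value far from the rest of its group. Among independent sets chance alone would give about 1 in 20, and 6 of 130 is near that share. These sets share arrays and are not independent, so the number does not account for the flags, and what lies behind them was not tested. Pull-down after sleep deprivation 1 held 3 of the 6 flagged values: Per1 at 6.88 (the next value was 5.22), Cry2 at 9.05 (7.39) and Csnk1d 1415825_s_at at 6.79 (5.42). Pull-down control 3 was high for Cry2 at 8.72 (7.17). These 2 arrays are the pair with the most 18S signal, and the part of that signal was not tested. In whole brain, Per2 1417603_at read 6.87 on sleep-deprived array 21, below the other 3 (7.21 to 7.28) and above all controls. In supernatant 15, Clock 1418659_at read 7.07 where the others read 7.62 to 7.65.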

How the results depend on the processing

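For sleep deprivation in whole brain the count of member probe sets that passed went from 0 to 1, always Per2 1417602_at, after quantile normalization, after median centring and with variance trend and robust estimation. Over all probe sets that comparison gave 21 calls, 0 to 62 under the alternatives and 1 to 16 with 1 array left out. For whole brain against supernatant the member count of 8 became 15 after quantile normalization, 18 with array weights and 4 to 6 with 1 array left out, and the count over all, 4913, ran from 4790 to 13843 and from 3022 to 4324. Against whole brain the pull-down count over all, 38008, ran from 24447 to 40267 under the alternatives and from 36606 to 39784 with 1 array left out. The alternatives include a filter on low means, under which fewer probe sets are tested, so these counts do not all share the same total. Values that turned to above 0 against whole brain, after quantile normalization and after centring, were those of Per2 1457350_at (0.21 and 0.23), Per3 1460662_at (0.0083 and 0.014), Npas2 1421036_at (0.084 and 0.083), Csnk1d 1456727_a_at (0.75 and 0.95) and Csnk1e 1417175_at (0.67 and 0.85). Against supernatant they were those of Csnk1d 1415825_s_at (0.66 and 0.76), Csnk1d 1456727_a_at (0.15 and 0.53) and Csnk1e 1417175_at (0.0286 and 0.34), and, after centring alone, Per2 1417602_at (0.38). The cause was not tested. For sleep deprivation in pull-down and the difference of both effects no member passed under any alternative run. No paired analysis was possible because the groups compared share fewer than 2 array numbers. Leaving out pull-down control 11 together with the 2 arrays of most 18S signal was chosen after seeing the data; it left 24 member probe sets called against whole brain (4 higher, 20 lower).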
